A study of Arabidopsis thaliana with 24 samples.

Results

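A set of 213 nuclear genes was expressed well in shoots and was listed nowhere among the genes of roots. The members were chosen by their measured values: a gene had to be in the authors' shoot table, absent from their root table, encoded in the nucleus, and at 10 CPM or more in untreated shoots at 3 or at 10 days. CPM is a gene's count scaled to a common library size, here taken back from the deposited log2 values. Of 19495 genes in the shoot table and 20336 in the root table, 18586 were in both and 886 nuclear genes were in the shoot table alone, and 213 of these 886 passed the limit on level.

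The seedlings were Arabidopsis thaliana of the accession Col-0, sown on agar with 0.1X MS medium and moved at 5 days of age to medium with 2 mM Ti (titanium dioxide nanopowder) or without Ti. Shoots and roots were cut apart after 3 and 10 days on that medium, and the tissue of 160 seedlings was pooled into each library. The 4 shoot groups are Ctrl-S-3D and Ctrl-S-10D (Col-0 shoots without Ti at 3 and 10 days) and Ti-S-3D and Ti-S-10D (Col-0 shoots with Ti at 3 and 10 days), each of 3 libraries among the 24 of the series. The question asked of these genes is how shoot-listed functions changed between the days and with Ti.

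The deposited tables hold 1 fitted value per gene and group, repeated in the columns of its 3 libraries, so the spread between replicates is not in the files and no difference below carries an error or a test. Differences are therefore read by size, as log2F.C. (the difference between fitted log2 CPM values). A gene is counted as higher or lower with Ti beyond 0.2 log2, and as rising or falling from day 3 to day 10 beyond 1 log2. The study used the same Ti limit together with a false discovery rate. By both it called few shoot genes, and fewest at 3 days, so a member counted here by size need not be one the study called. Counts over the whole set stand beside the share of all 19495 shoot genes past the same limit, and beside 11897 nuclear genes that reached the same Ctrl level in shoots and were listed in both tissues (the same-level genes). The depth of the libraries is unknown from these files.

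Leaves and stems differ from roots by photosynthesis, by gas exchange through stomata, and by a flat blade with an upper and a lower side. The blade is covered with a waxy cuticle that roots lack or build in another form. Leaves of Brassicaceae also store glucosinolates apart from the myrosinases that cut them, a chemical defence released on wounding. Genes of these functions are known in Arabidopsis to be transcribed mainly above ground.

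Absence from the root table is a statement about the authors' filter on low CPM, whose limit is not stated. The lowest gene kept in roots reached 0.279 CPM in its highest group, and the first percentile of that value was 0.566 CPM, so a member may have had a trace of root RNA below such levels. Among the shoot-only genes, 142 of the 213 members passed the limit at both days, 50 at 3 days alone and 21 at 10 days alone. Just inside the limit stood AT3G09160 at 10.1 CPM in Ctrl-S-3D and 5.32 in Ctrl-S-10D, E13L3 at 10.1 and 5.07, and AT1G76960 at 10.2 and 2.65. Just outside stood AT5G24155 at 9.92 and 1.05 CPM, ACS8 at 0.428 and 9.91, and AT3G55240 at 9.85 and 3.98.

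Marker lists separated shoots from roots in part. Of 15 genes of the stomatal lineage and guard cells, all 15 were in the shoot table and 4 of them were also in the root table. Of 10 leaf polarity genes all were in the shoot table and 6 were also in roots. Of 16 shoot epidermis and cuticle genes 2 were not listed in shoots, and the 14 in the shoot table were all in the root table too. Planned symbols without a single match, PDF2, BDG and CUS2 among them, and FDH, matched to another gene, were left out of the lists. In both tables were also 13 genes of carbon fixation and photorespiration and 36 of 37 of the photosystems and antenna. Of 6 trichome genes listed in shoots, 4 were in roots too, and of 11 shoot meristem and boundary genes 9, while WUS and CLV3 of that list were not listed in shoots. Of 17 root genes, 9 were not listed in shoots, among them the root hair expansins EXPA7 and EXPA18. The other 8 summed to 54.9, 48.1, 40.7 and 34.8 CPM in Ctrl-S-3D, Ti-S-3D, Ctrl-S-10D and Ti-S-10D. Most of these sums came from SCR, at 36.7, 38.3, 22.7 and 23.3 CPM in the same order. CASP1 and CASP2 of the endodermis were at 0.89 and 1.05 CPM in Ctrl-S-3D. The members themselves are not listed in roots.

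Most members were of moderate level. The higher of the Ctrl values was 1000 CPM or more for 4 members, 100 or more for 32 and under 20 for 82. Together the members made up 1.62% of the summed CPM in Ctrl-S-3D, 1.68% in Ti-S-3D, 1.09% in Ctrl-S-10D and 1.12% in Ti-S-10D. The median member was at 26.2, 26.0, 16.9 and 16.8 CPM in these groups, while the median of the same-level genes was 29.0, 29.4, 29.2 and 29.7 CPM. The members thus took a smaller part of the shoot RNA at 10 days, with and without Ti.

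CPM is not divided by gene length, so the order of levels between genes is an order of reads. TGG1, a myrosinase that cuts glucosinolates and is abundant in guard cells, was the highest member at 2308 CPM in Ctrl-S-3D, 2205 in Ti-S-3D, 1157 in Ctrl-S-10D and 1407 in Ti-S-10D. CA2, a carbonic anhydrase, which interconverts carbon dioxide and bicarbonate, followed at 1791, 1756, 1342 and 1210 CPM. FBA5, an aldolase of sugar metabolism, stood at 1509, 1598, 421 and 411 CPM. AT2G10940, named as a lipid-transfer family protein, was at 1054, 1260, 620 and 623 CPM. All 4 were lower at 10 than at 3 days, and FBA5 most so. The next members in the order of reads were TGG2, AT1G23130 (a polyketide cyclase family protein), GER3 (a germin-like protein), AT1G70820 (a phosphoglucomutase-like protein), AT2G27385 (a Pollen Ole e 1 family protein) and AT4G22505 (a lipid-transfer family protein), whose higher Ctrl values ran from 514 down to 224 CPM. AT1G23130 was the exception among these 10, at 438, 476, 503 and 604 CPM.

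**Figure D1:**
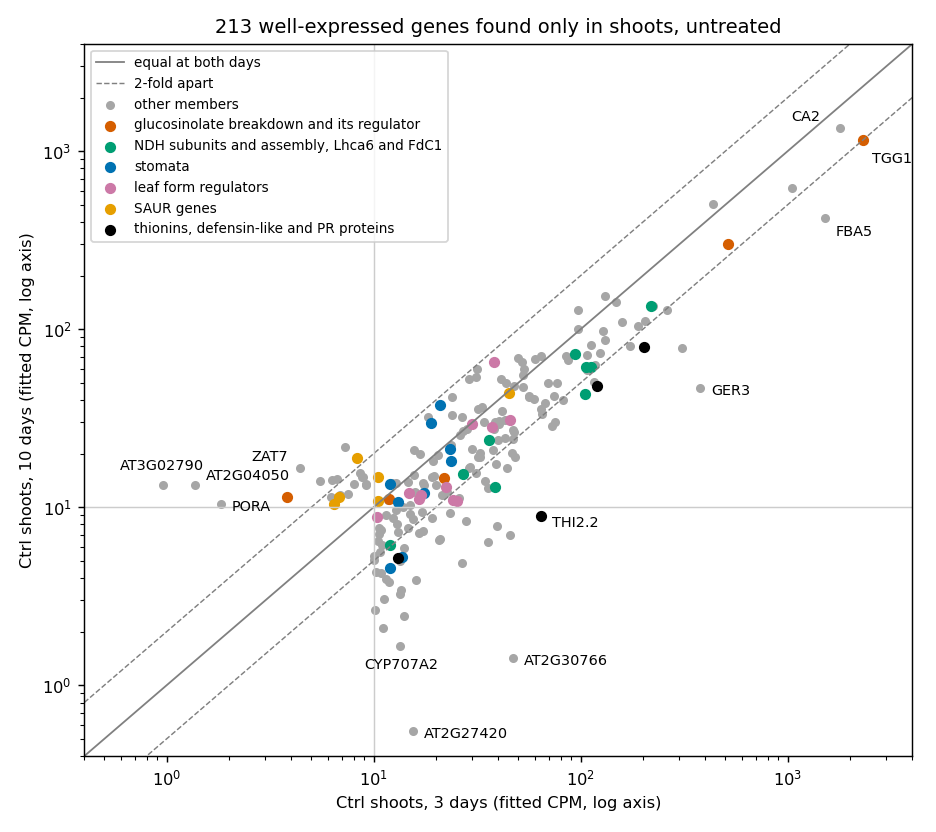
Fitted CPM of the 213 members in Ctrl shoots at 3 days (x axis, log scale) against 10 days (y axis, log scale), 1 point a gene, with 6 functional groups in colour, equality as a solid line, 2-fold differences as dashed lines and the 10 CPM limit as grey lines. Most points lie under the line of equality, and GER3, THI2.2, AT2G30766 and AT2G27420 lie far below it; no point falls in the lower left corner, because the limit removed it.

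From day 3 to day 10 the members as a set fell. In Ctrl shoots 54 of 213 (25.4%) were lower by more than 1 log2 and 10 (4.69%) higher, beside 7.89% and 4.74% of all shoot genes and 4.78% and 3.14% of the same-level genes. The Ctrl values had selected the members, so these Ctrl shares are a description only. In Ti-treated shoots, whose libraries the selection did not use, 64 (30.0%) were lower and 18 (8.45%) higher, beside 8.86% and 5.99% of all shoot genes and 5.83% and 3.48% of the same-level genes. The median log2F.C. of the members was -0.56 in Ctrl and -0.53 with Ti, and that of the same-level genes was 0.02 and 0.03. In bulk shoots fewer cells of a type and less RNA per cell cannot be told apart.

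The change with time was much alike in both series of libraries, which share none. Below 0 in both were 148 members, above 0 in both 44, and 21 changed in opposite directions. Across the 213 genes the log2F.C. in Ctrl and with Ti had a Pearson correlation of 0.867 and a Spearman correlation of 0.917, as a description over genes that share 4 fitted groups. In both, 46 members fell by more than 1 log2 and 9 rose by more than 1 log2.

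**Figure D2:**
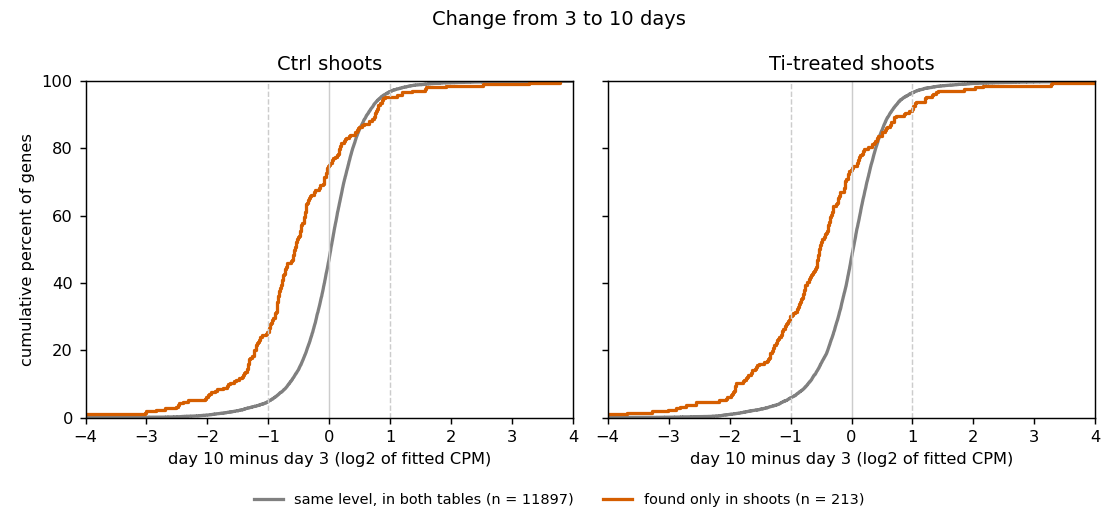
Cumulative percent of genes (y axis) by log2F.C. from day 3 to day 10 (x axis, drawn from -4 to 4, with AT2G30766 and AT2G27420 below it and the Ti value of AT3G02790 above it) in Ctrl and in Ti-treated shoots, for the 213 members and the 11897 same-level genes. Over most of its height the members' curve lies to the left, with a median of -0.56 in Ctrl and -0.53 with Ti against 0.02 and 0.03, and the curves cross at positive values.

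The largest falls ended at different levels. AT2G30766, an uncharacterized gene, was at 47.4 CPM in Ctrl-S-3D, 56.6 in Ti-S-3D, 1.43 in Ctrl-S-10D and 2.52 in Ti-S-10D, a log2F.C. with time of -5.05 in Ctrl and -4.49 with Ti. AT2G27420, a cysteine proteinase, went from 15.5 and 19.9 CPM at 3 days to 0.556 and 0.568 CPM at 10 days, in Ctrl and Ti in that order. CYP707A2, a hydroxylase that breaks down abscisic acid, was at 13.5, 16.5, 1.67 and 2.03 CPM in the order Ctrl-S-3D, Ti-S-3D, Ctrl-S-10D and Ti-S-10D, the order kept for every list of 4 values that follows. All 3 were low at 10 days whatever the medium, and CYP707A2 fell by 3.02 log2 in Ctrl. GER3 was at 378, 442, 46.8 and 62.9 CPM, and THI2.2, a thionin, a small antimicrobial peptide, at 64.5, 55.2, 8.94 and 7.52 CPM. The subtilase AT5G59130 was at 45.3, 48.3, 6.96 and 3.75 CPM. Among the 8 largest falls these 6 were joined by AT1G45010, a TLC domain protein, with a Ctrl log2F.C. of -2.52, and by the uncharacterized AT1G78995 with -2.48. Of these 8 genes only GER3 passed the level limit at both days. The others passed it in Ctrl-S-3D alone, so their Ctrl falls are tied to the selection.

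The 8 largest rises in Ctrl started from levels under the limit. Each of these genes passed the level limit in Ctrl-S-10D alone, so its Ctrl rise is tied to the selection. PORA, a light-dependent protochlorophyllide oxidoreductase of chlorophyll synthesis, was at 1.82, 1.27, 10.5 and 12.4 CPM, with a log2F.C. of 2.53 in Ctrl and 3.29 with Ti. ZAT7, a zinc finger protein known for stress responses, was at 4.39, 5.88, 16.6 and 23.9 CPM. RD20, a caleosin known to be induced by drought and abscisic acid, was at 5.49, 3.80, 14.0 and 13.7 CPM. These 3 rose in both series. The remaining rises in Ctrl among the 8 largest were AT2G04050 (3.27), the uncharacterized AT5G03120 (1.58), MBP2 (1.58), SAUR63 (1.19) and AT3G02790.

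AT3G02790, a zinc finger gene, needs its neighbour to be read. It was at 0.966 CPM in Ctrl-S-3D, at 0.00552 CPM in Ti-S-3D, which is the lowest value of the table, and at 13.4 and 14.9 CPM at 10 days. No fold is given for its 3-day Ti value. Its transcript is covered by that of AT3G02780, and the sum of both genes was 70.2, 64.5, 85.4 and 88.8 CPM, a log2F.C. with time of 0.28 in Ctrl. The counts of the members above include AT3G02790.

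The roles below were grouped with the values known, and 98 of the 213 members fell into 16 such groups. Counts in these small groups are descriptions, to be read against the shares of all shoot genes: 7.89% fell and 4.74% rose with time in Ctrl, 8.86% and 5.99% with Ti, 13.1% were higher and 12% lower with Ti at 3 days, and 24.2% and 21.7% at 10 days. Genes of stomata, the pores of the leaf, made up 9 members. SPCH, the bHLH factor that starts the stomatal lineage, was at 12.04, 15.6, 4.58 and 4.72 CPM, a log2F.C. with time of -1.40 in Ctrl and -1.73 with Ti. SDD1, a subtilisin-like protease that limits stomatal number, was at 13.7, 14.4, 5.26 and 6.74 CPM. Both early-acting genes fell by more than 1 log2 in both series, but they passed the level limit in Ctrl-S-3D alone, so their Ctrl fall is tied to the selection. FMA (FAMA), the bHLH factor of the last step to guard cells, was at 18.9, 19.2, 29.7 and 31.3 CPM, and KAT1, a potassium channel of guard cells, at 20.9, 18.5, 37.3 and 46.6 CPM. KAT1 and FMA, which passed the level limit at both days, stood higher at 10 days, KAT1 by 0.83 log2 in Ctrl and 1.33 with Ti, and FMA by 0.66 and 0.70, inside the limit of 1. The receptor TMM (23.6, 26.7, 18.1 and 20.7 CPM), the receptor kinase ERL2 (23.4, 22.9, 21.2 and 19.8) and STOMAGEN (13.1, 14.9, 10.7 and 12.03), a mesophyll peptide that promotes stomata, stayed within the limit. So did bHLH071 and AT4G14480, a protein kinase. With Ti at 10 days 8 of these 9 genes stood above Ctrl by any amount, and at 3 days 5 did. At 10 days 10131 of all 19495 shoot genes and 120 of the 213 members stood above Ctrl. Beyond 0.2 at 10 days were 2 of the 9 (SDD1, 0.36, and KAT1, 0.32). Of the fixed stomatal list of 15 genes, 5 were members and a further 6 (EPF1, EPF2, MUTE, BASL, POLAR and ERL1) were in the shoot table alone but below the limit on level.

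Regulators of leaf form changed little with Ti. YAB3, AFO (FILAMENTOUS FLOWER), YAB2 and YAB5 are YABBY factors of the lower leaf side and blade growth. YAB3 was at 45.7, 51.2, 31.0 and 36.3 CPM, and AFO at 37.3, 36.9, 28.3 and 28.5 CPM. YAB2 and YAB5 were at 14.9 and 16.9 CPM in Ctrl-S-3D and at 11.96 and 11.8 in Ctrl-S-10D. All 4 were lower at 10 days by 0.31 to 0.56 log2 in Ctrl, less than the limit. LBD21, a LOB domain protein, was at 25.3, 25.6, 10.8 and 12.02 CPM, and SNZ, an AP2-type repressor of flowering, at 24.3, 23.3, 10.9 and 11.3 CPM. These 2 of the 11 genes fell beyond 1 log2. NGA1, which shapes the leaf margin, and TCP5, which restrains leaf growth, had a Ctrl log2F.C. of -0.78 and -0.24. HB33, a zinc finger homeodomain protein, was the only one of the 11 that stood higher at 10 days, at 38.2, 39.6, 65.5 and 56.1 CPM. At 3 days none of the 11 differed with Ti by more than 0.2, the largest being 0.18 for HB31, and at 10 days YAB3 and HB31 were higher (0.23 and 0.21) and HB25 and HB33 lower (-0.24 and -0.22).

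**Figure D3:**
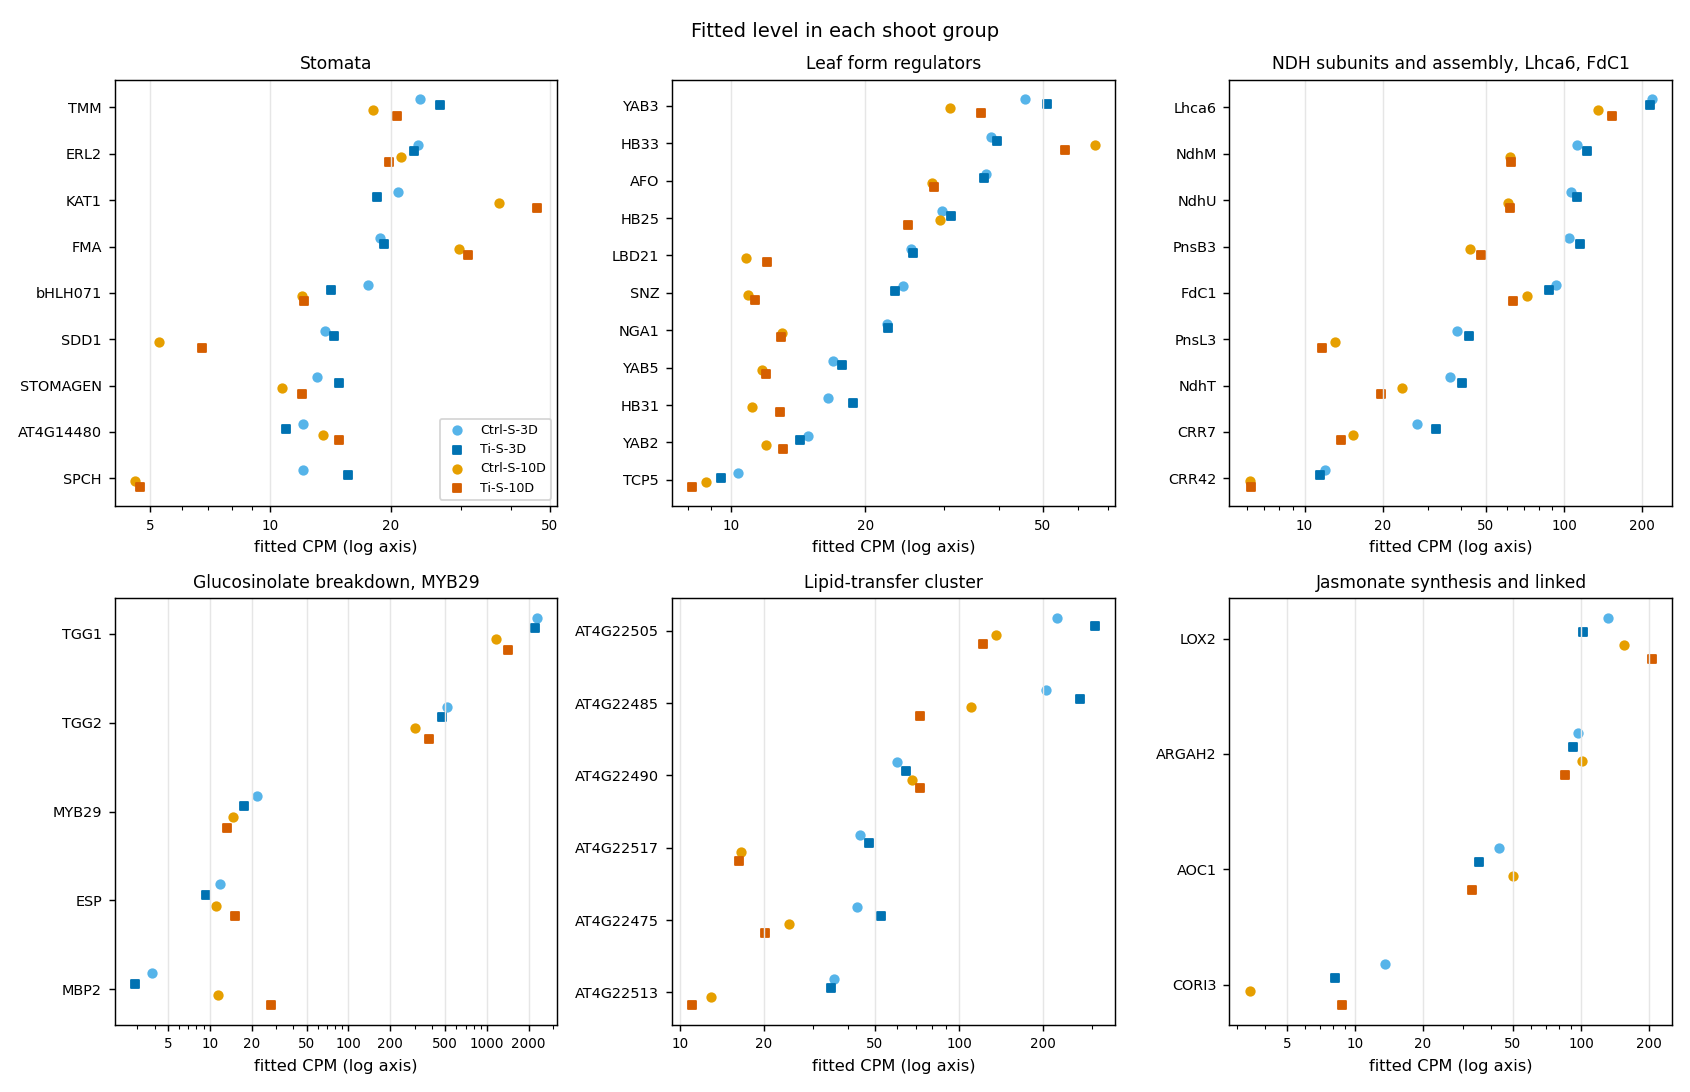
Fitted CPM (x axis, log scale) of the members of 6 functional groups in the 4 shoot groups, circles for Ctrl and squares for Ti, blue for 3 days and orange for 10 days. Days separate more than treatments for SPCH, SDD1, LBD21 and the NDH genes, while MBP2 and CORI3 show the widest gap between Ctrl-S-10D and Ti-S-10D.

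The chloroplast NADH dehydrogenase-like (NDH) complex passes electrons from ferredoxin back to plastoquinone around photosystem I. NdhM, NdhU, NdhT, PnsB3 and PnsL3 are its subunits, CRR7 and CRR42 help to assemble it, and Lhca6 is an antenna protein that joins it to photosystem I. All of these, with the ferredoxin-like FdC1, stood lower at 10 days in Ctrl and with Ti, 9 of 9, with a median log2F.C. of -0.82 in Ctrl and -0.97 with Ti. Of all 19495 shoot genes 9763 stood lower in Ctrl and 9612 with Ti, and of the 213 members 160 and 157. NdhM was at 112, 122, 61.7 and 62.3 CPM, PnsB3 at 104, 115, 43.4 and 47.6 CPM, and PnsL3 at 38.7, 43.1, 13.1 and 11.6 CPM. Beyond 1 log2 in Ctrl were PnsB3 (-1.27) and PnsL3 (-1.57), and with Ti also NdhT and CRR7. Ti differences were small: CRR7 was 0.25 higher at 3 days and NdhT 0.27 lower at 10 days, and the other 7 genes kept within 0.2 at both days. Lhca6, at 219, 214, 135 and 154 CPM, was the 1 member among 37 photosystem and antenna genes, whereas 5 of 18 genes of the NDH list were members. FdC1 lies within the transcript of AT4G14900, with which it may share reads, and the sum of both had a Ctrl log2F.C. with time of -0.11, against -0.37 for FdC1 alone, and a Ti log2F.C. of -0.08 at 3 days and -0.14 at 10 days.

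Enzymes of carbon and chlorophyll differed widely among themselves. In Ctrl FBA5 fell by 1.84 log2, AT1G70820 fell by 1.97 (308, 327, 78.6 and 94.8 CPM), and PPT2, a phosphoenolpyruvate carrier of the plastid envelope, fell by 1.17 (39.2, 35.2, 17.4 and 11.8 CPM). BAM6, a beta-amylase of starch breakdown, was at 13.3, 15.2, 3.26 and 1.56 CPM. CLH1, a chlorophyllase, was at 82.1, 71.7, 40.1 and 53.2 CPM. These 5 of 9 fell beyond 1 log2 in Ctrl, and PORA alone rose. BAM6 passed the level limit in Ctrl-S-3D alone and PORA in Ctrl-S-10D alone, so the Ctrl changes of both are tied to the selection. GPRI1 (GLK1), an activator of nuclear genes for photosynthesis, was at 158, 140, 110 and 137 CPM, and PGL5, a phosphogluconolactonase, at 43.1, 41.0, 30.8 and 28.1 CPM. With Ti at 10 days BAM6 (-1.06) and PPT2 (-0.57) were lower, and CLH1 (0.41), GPRI1 (0.32), AT1G70820 (0.27) and PORA (0.24) were higher.

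Among 5 glucosinolate genes, MBP2 and ESP passed the Ti limit on opposite sides of Ctrl at the 2 days. MBP2, a myrosinase-binding protein, was at 3.81 CPM in Ctrl-S-3D, 2.87 in Ti-S-3D, 11.4 in Ctrl-S-10D and 27.8 in Ti-S-10D, a Ti log2F.C. of -0.41 and then 1.29. ESP, named as the epithiospecifier protein, was at 11.9, 9.34, 11.1 and 15.1 CPM (-0.35 and 0.44), and its activity in these Col-0 shoots was not measured. TGG2, the other myrosinase, was at 514, 475, 301 and 384 CPM (-0.12 and 0.35), and TGG1 had -0.07 and 0.28. All 4 were more than 0.2 above Ctrl at 10 days, while at 3 days TGG1 and TGG2 were within 0.2 of it. The fifth, MYB29, a MYB activator of aliphatic glucosinolate synthesis, was at 22.0, 17.5, 14.6 and 13.4 CPM, below Ctrl at both days (-0.33 and -0.12). TGG1 and TGG2 are neighbours on chromosome 5, within chr5:9072708-9082384 of TAIR10.1.

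Jasmonate is the hormone of wounding and herbivory. LOX2, the lipoxygenase that starts its synthesis in chloroplasts, was at 131, 102, 155 and 207 CPM, a Ti log2F.C. of -0.36 at 3 days and 0.42 at 10 days. CORI3, an aminotransferase-like protein induced by coronatine and jasmonate, was at 13.6, 8.14, 3.42 and 8.80 CPM, with -0.74 and 1.36, the largest rise with Ti of any member at 10 days. CORI3 passed the level limit in Ctrl-S-3D alone, so its lower value with Ti at 3 days is tied to the selection. AOC1, the allene oxide cyclase of a later step, was at 43.6, 35.4, 50.0 and 33.0 CPM, with -0.30 and -0.60. LOX2 and AOC1, of the same pathway, thus stood on opposite sides of Ctrl at 10 days. ARGAH2, an arginase, had -0.08 and -0.24.

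Small defence proteins fell with time in Ctrl by more than 1 log2, 4 of 4. THI2.2 and PR5 passed the level limit in Ctrl-S-3D alone, so their Ctrl fall is tied to the selection. The defensin-like AT3G05730 was at 203, 250, 79.5 and 101 CPM, the thionin AT1G66100 at 120, 97.7, 48.1 and 63.3 CPM, and PR5, a thaumatin-like pathogenesis-related protein, at 13.1, 13.7, 5.17 and 4.16 CPM. AT3G05730 was higher with Ti at both days (0.30 and 0.35), THI2.2 lower at both (-0.22 and -0.25), AT1G66100 lower and then higher (-0.29 and 0.40), and PR5 lower at 10 days (-0.31).

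Immune receptors of the NBS-LRR and receptor-like types were 7 members. In Ctrl 3 of them (RLP47, AT1G61300 and AT1G62630) fell with time by more than 1 log2, and AT3G04210 was even. RLP47 passed the level limit in Ctrl-S-3D alone, so its Ctrl fall is tied to the selection. With Ti at 3 days their log2F.C. ran from 0.05 to 0.46. Beyond 0.2 at 3 days were RLP31 (0.46; 10.7, 14.7, 7.64 and 5.67 CPM), AT3G04210 (0.22; 26.9, 31.3, 26.9 and 33.5 CPM) and RLP47 (0.20 after rounding; 27.9, 32.1, 8.35 and 9.45 CPM), and the median of the 7 was 0.20. At 10 days AT3G04210 (0.32) and AT1G56520 (0.37) were higher and RLP31 lower (-0.43). The others were AT1G61300, AT1G62630 and WRR4, a receptor known for resistance to white rust, at 40.1, 41.4, 23.8 and 24.0 CPM. Of the 5 cysteine-rich receptor kinases, CRK41 was higher with Ti at both days (0.29 and 0.32) and CRK21 lower at 3 days (-0.22; 56.4, 48.5, 41.5 and 36.9 CPM). CRK30 (14.6, 16.7, 7.63 and 4.46 CPM) and CRK42 were lower at 10 days (-0.78 and -0.55), and CRK22 was nearly even.

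A run of 6 members on chromosome 4 (chr4:11844242-11857362 of TAIR10.1) held 5 lipid-transfer family genes and the uncharacterized AT4G22475. AT4G22505 was at 224, 306.5, 136 and 121 CPM and AT4G22485 at 205, 272, 111 and 72.5 CPM. With Ti they were higher by 0.45 and 0.41 at 3 days, and at 10 days AT4G22485 was lower by 0.61. From day 3 to day 10 with Ti 4 of the 5 lipid-transfer family genes fell by more than 1 log2, beside 2 of 5 in Ctrl, and AT4G22490 (60.2, 64.4, 67.9 and 72.6 CPM) was the exception. AT4G22475 (43.2, 52.5, 24.5 and 20.1 CPM) shares 1842 exon bases with AT4G22485 on the opposite strand, and whether the counting used strand is not stated, so the values of these neighbours cannot be told apart fully.

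The 7 cuticle genes grouped here, picked with the values known, differed little with Ti. Of the 16 members of the fixed cuticle and lipid list, 3 were higher and 1 lower at 3 days, beside 13.1% and 12% of all shoot genes. At 10 days 2 of the 16 were higher and 3 lower, beside 24.2% and 21.7%. MYB16, a MYB regulator of cuticle formation, was at 33.5, 31.0, 36.5 and 35.8 CPM, and DCF, an acyltransferase that adds ferulate to cutin, at 26.2, 24.7, 25.4 and 27.1 CPM. KCS19, of the family that lengthens fatty acids for waxes, was at 47.2, 50.7, 24.3 and 22.9 CPM, and the lipase LTL1 at 107, 106, 58.9 and 52.6 CPM. None of the 7 (with KCS13, the homeodomain protein HB-7 and the transporter ABCG31) differed with Ti by more than 0.2 at either day, and none passed 1 log2 with time in Ctrl. In Ctrl the log2F.C. with time ran from -0.96 for KCS19 to 0.87 for ABCG31, and in the Ti series KCS19 and LTL1 fell by 1.15 and 1.01. Among 7 GDSL lipases, LTL1 included, AT4G28780 was lower with Ti at 10 days (64.7, 59.8, 71.1 and 47.7 CPM, -0.58), AT4G18970 was at 129, 126, 97.2 and 98.8 CPM, and AT5G33370 and AT5G45950 were higher at 10 days (0.27 and 0.24).

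SAUR genes, short auxin-responsive genes of cell elongation, were 6 members. In Ctrl SAUR63 alone rose by more than 1 log2, and the median log2F.C. with time was 0.59, from -0.04 for AT4G38840 to 1.19. With Ti 3 of the 6 rose. SAUR63 was at 8.28, 7.35, 18.9 and 19.6 CPM, and AT4G38840, the highest, at 44.9, 38.7, 43.6 and 36.0 CPM. With Ti at 3 days 4 of the 6 were below Ctrl by more than 0.2, and at 10 days AT5G18030 (10.5, 8.09, 10.9 and 16.2 CPM, 0.57) and AT1G29460 (0.34) were higher and AT4G38840 lower (-0.28). AT1G29430, SAUR63, AT1G29450 and AT1G29460 lie side by side on chromosome 1 (chr1:10302585-10308246 of TAIR10.1, minus strand). Each of their promoters (300 bases before the annotated gene start) holds the TCP site GGNCCC, and 30 bases around it are shown, from RefSeq TAIR10.1, 5′ to 3′ on the minus strand, because these neighbours share it. SAUR63, AT1G29450 and AT1G29460 passed the level limit in Ctrl-S-10D alone, so their higher Ctrl value at 10 days is tied to the selection. Capitals mark GGGACC, the reverse complement of GGTCCC, which is a form of the site.
AT1G29430, chr1:10303441-10303470: ataattgattaccaacttGGGACCatagat
SAUR63, chr1:10305216-10305245: ataattgattaccaacttGGGACCcttaca
AT1G29450, chr1:10306599-10306628: aagattgattgctaacttGGGACCcttatg
AT1G29460, chr1:10308258-10308287: atgattgattactagtttGGGACCtcttta
The stretch before SAUR63 lies within the annotated gene AT1G29435. Searched on both strands, the site was in 14.6% of the members' promoters, 9.55% of those of same-level genes and 9.28% of those of all nuclear shoot genes.

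Further members with known functions covered walls, light signalling, metals and hormones. XTH6, an enzyme that remodels xyloglucan, was at 96.7, 89.1, 129 and 140 CPM, and EXPA5, an expansin that loosens walls, at 37.6, 33.4, 21.0 and 19.7 CPM. The Pollen Ole e 1 family genes AT2G27385 (261, 254, 128 and 157 CPM) and AT3G16670 (116, 138, 50.8 and 71.3 CPM) fell beyond 1 log2 in Ctrl and were higher with Ti at 10 days (0.29 and 0.49), and AT5G15780 and AT3G16660 stayed within the time limit in Ctrl. Of 10 wall genes 4 fell in Ctrl. The B-box factors BBX27 (52.1, 44.4, 65.4 and 69.2 CPM) and BBX17 (6.68, 7.28, 14.4 and 16.8 CPM) stood higher at 10 days, BBX17 by 1.11 log2. BBX17 passed the level limit in Ctrl-S-10D alone, so its Ctrl rise is tied to the selection. FRO7, a chloroplast ferric reductase, was at 174, 169, 80.6 and 110 CPM, higher with Ti at 10 days by 0.45, and YSL1, a carrier of metal-nicotianamine complexes, was at 18.4, 20.6, 32.0 and 22.0 CPM, lower by 0.54. Both metal genes were near even with Ti at 3 days. NAS3, a nicotianamine synthase, was within 0.2 at both days. The peroxidase PRXCA was at 23.9, 22.4, 41.7 and 58.7 CPM (0.49 with Ti at 10 days), and CYP71B4 at 52.7, 45.9, 55.1 and 65.1 CPM (0.24). Among 7 transport genes, STP14, a sugar transporter, was at 32.6, 36.0, 20.1 and 28.3 CPM (0.49 at 10 days), and SULTR3;1, of the sulfate transporter family, was lower at both days (-0.22 and -0.23).

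By the fixed lists, 25 members were among 927 transcription factors of the shoot table, of which 842 were in roots too. In Ctrl 3 of these 25 rose and 2 fell with time, beside 4.74% and 7.89% of all shoot genes, and with Ti at 10 days 6 were higher and 3 lower, beside 24.2% and 21.7%, so that their Ti count was near background. Of 16 cuticle and lipid genes among the members, 2 fell in Ctrl and 6 with Ti, and none rose. Of 11 defence genes 6 fell in Ctrl and 5 with Ti, and of 16 kinases and receptors 2 and 5, beside 7.89% and 8.86% of all shoot genes that fell in these contrasts. No member belonged to the lists for trichomes, the shoot meristem or flowering, although 6 trichome genes and 16 flowering genes were in the shoot table. These lists do not cover every gene of a function: SNZ, named above as a repressor of flowering, was a member outside the flowering list. The list of peptide families searched by name held no member, but the peptide genes STOMAGEN and RGF9 (76.7, 79.3, 49.8 and 56.5 CPM), which that list did not cover, were members.

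At 3 days the counts past the Ti limit rest on size alone, without the false discovery rate of the study. Higher than Ctrl by more than 0.2 log2 were 29 of 213 (13.6%) and lower 27 (12.7%, AT3G02790 included), beside 13.1% and 12% of all shoot genes and 7.02% and 4.19% of the same-level genes. The members' shares were thus near those of all shoot genes. The Ti libraries took no part in the selection, while the Ctrl libraries of this contrast did. The median log2F.C. of the members was 0.01, and the middle 90% of the same-level genes spanned -0.19 to 0.23. The largest values above Ctrl were AT2G04050 (0.94), RLP31, AT4G22505, ZAT7 (0.42), AT4G22485 and SPCH (0.38). The largest below were CORI3 (-0.74), DFR (-0.64), PRE1 (-0.59), RD20 (-0.53), PORA (-0.52) and MBP2, with no fold given for AT3G02790. DFR, a reductase of anthocyanin synthesis, was at 8.03, 5.15, 13.5 and 10.6 CPM, and PRE1, an HLH protein of cell elongation, at 6.28, 4.19, 14.3 and 18.6 CPM. These low members sat under the 10 CPM limit at 3 days.

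At 10 days more members passed the Ti limit, again by size alone. Higher were 63 members (29.6%) and lower 44 (20.7%), beside 24.2% and 21.7% of all shoot genes and 19.6% and 18.1% of the same-level genes, whose middle 90% spanned -0.42 to 0.41. The median of the members was 0.03. Above Ctrl the largest were CORI3, MBP2, AT1G53870 (0.82), AT2G30766 (0.82), AT1G67865 (0.75) and AT1G53875 (0.74). AT1G67865, uncharacterized, was at 41.1, 42.6, 52.2 and 87.9 CPM, and its neighbour AT1G67860, also uncharacterized, at 26.6, 27.8, 32.3 and 46.0 CPM. AT1G53870 and AT1G53875 are neighbours too, named as LURP-one-like proteins. AT1G53870 has a transcript identical to that of AT1G53890, which was in the shoot table as well, and the sum of both was higher with Ti at 10 days by 1.00 log2. So 4 of these 6 carry a family name alone or are uncharacterized.

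AT2G04050 had the largest fall with Ti. This MATE efflux family gene was at 1.37 CPM in Ctrl-S-3D, 2.64 in Ti-S-3D, 13.3 in Ctrl-S-10D and 2.57 in Ti-S-10D, a Ti log2F.C. of 0.94 and then -2.37. It was a member through its Ctrl-S-10D value alone. The next falls at 10 days were the uncharacterized AT5G55570 (9.14, 9.01, 13.5 and 6.21 CPM, -1.12), BAM6, the subtilase AT5G59130 (-0.89), CRK30 and AT3G46370 (28.8, 25.9, 52.3 and 33.3 CPM, -0.65), a leucine-rich repeat kinase. AT5G55570, like AT2G04050, was a member through its Ctrl-S-10D value alone, so the 10-day falls of both with Ti are tied to the selection.

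**Figure D4:**
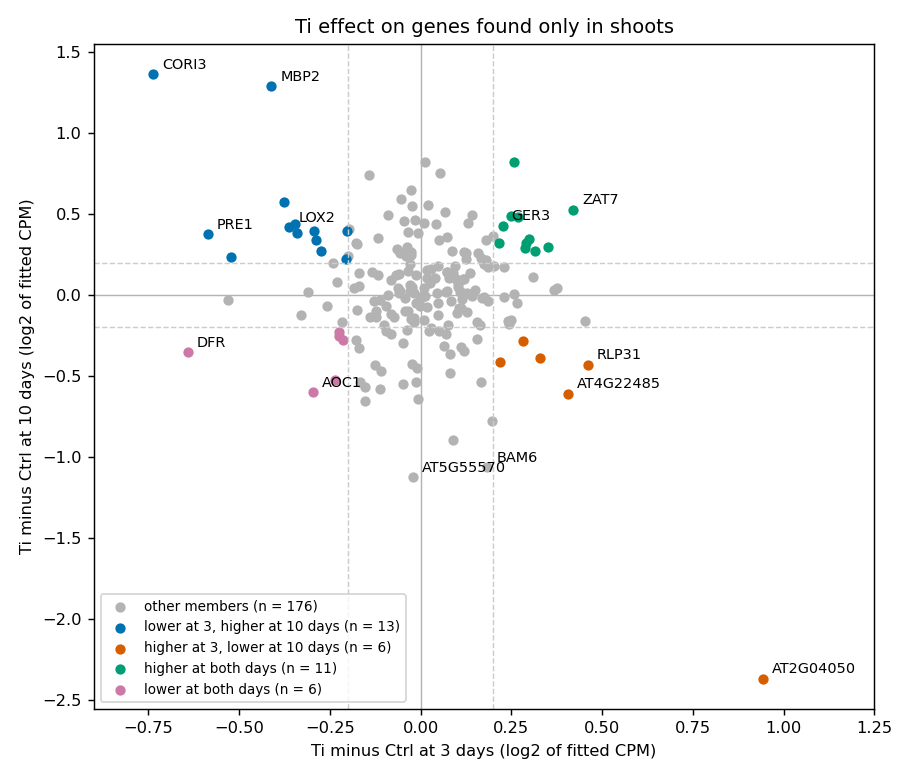
Log2F.C. of Ti against Ctrl at 3 days (x axis) and at 10 days (y axis), 1 point a member, with the limits of 0.2 log2 drawn; AT3G02790, at the lowest table value in Ti-S-3D, is left out. Points spread further along the 10-day axis, and CORI3 and MBP2 lie at the upper left, while AT2G04050 lies at the lower right.

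With Ti 11 members (5.16%) were higher at both days, beside 4.43% of all shoot genes and 1.98% of the same-level genes. Lower at both were 6 (2.82%), beside 3.97% and 1.19%. Lower at 3 and higher at 10 days were 13 (6.1%), beside 3.62% and 1.14%, and higher and then lower were 6 (2.82%), beside 3.58% and 1.63%. Within 0.2 at both days were 86 members (40.4%), beside 44.6% of all shoot genes and 57.1% of the same-level genes. In each class the members' share was nearer to that of all shoot genes than to that of the same-level genes. Among the classes beyond 0.2 at both days, it stood furthest from all shoot genes in the class that was lower and then higher. Higher at both were GER3 (0.23 and 0.43), AT3G05730, AT3G16670, ZAT7 (0.42 and 0.53), CYP707A2, AT2G30766, AT3G04210, CRK41, AT1G11850, AT4G24700 and UGT73C6, a glucosyltransferase. Lower at both were AOC1, DFR, THI2.2, SULTR3;1, AT4G38840 and AT1G13650. Besides MBP2, ESP, LOX2, CORI3 and AT1G66100, the 13 that were lower and then higher were PRE1, PORA, AT5G18030, AT1G29460, AT5G33370, AT3G28220, AT4G22755 and AT1G14250. Those higher and then lower were AT2G04050, RLP31, AT4G22485, AT4G22475, AT3G06880 and UMAMIT46, of a family of amino acid exporters. The 2 days share no library.

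The members shared features that the selection did not use. They were simple genes, with 25.4% of 1 exon against 9.92% of the same-level genes and 15.4% of all nuclear shoot genes. In the same order the median number of exons was 3 against 6 and 4. The median coding length was 984 bases against 1257 and 1164. Of 146 members with a location note in the reference, 72 (49.3%) were noted in the endomembrane system, cell wall, apoplast or extracellular space. The share was 14.5% of the same-level genes and 19.3% of all nuclear shoot genes, each among genes with a note. Chloroplast or thylakoid notes were on 24 members (16.4%) against 24.7% and 20.1% in these sets. Notes of the first kind were thus more frequent among the members than chloroplast notes, but an endomembrane note does not show that a protein is secreted. All 213 were found in RefSeq TAIR10.1 as protein coding, with 55, 31, 37, 34 and 56 on chromosomes 1 to 5, and 36 of them lay in 15 clusters with less than 10 kb between members.

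Some member values rest on shared sequence. Of the 213, 41 share exon bases with another annotated gene, 33 of them with a gene on the opposite strand, and 5 (AT1G53870, AT2G01755, AT3G02790, FdC1 and DIR1) have a covering or near-identical transcript in the shoot table. For AT2G01755 the sum with its partner had a log2F.C. with time near 0 in Ctrl, and for DIR1, a lipid-transfer protein of systemic resistance, the Ti log2F.C. of the sum was -0.02 and 0.20.

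Other promoter motifs stood close to background. The G-box CACGTG was in 6.57% of the members' promoters and 8.25% of those of same-level genes, the I-box GATAAG in 18.3% and 15.3%, the L1 box (TAAATGCA or TAAATGTA) in 7.04% and 5.56%, and the evening element AAAATATCT, a site of the circadian clock, in 4.23% and 3.03%, each searched on both strands. Among the 46 members that fell by more than 1 log2 in Ctrl and with Ti, a group picked by values that include those of the selection, 5 (10.9%) held the evening element, against 2.94% of all nuclear shoot genes. The other motifs were less frequent in these 46 than in all nuclear shoot genes: the G-box at 2.17% against 8.1%, the I-box at 10.9% against 14.6%, the L1 box at 4.35% against 5.56% and the TCP site at 6.52% against 9.28%. The 30 bases around the element in these 5 promoters are shown from RefSeq TAIR10.1, 5′ to 3′ on the gene's own strand, because FBA5, AT3G05730 and AT5G59130, described above, are among them. Capitals mark the element or its reverse complement.
FBA5, chr4:13390655-13390684, plus strand: aatgcagttggattgAGATATTTTcttctt
AT1G70820, chr1:26705321-26705350, plus strand: tggaagtttgcttgcAGATATTTTtttttt
AT3G05730, chr3:1694970-1694999, plus strand: tgaaaaagtccaaagAAAATATCTcactgg
AT4G13800, chr4:8004968-8004997, minus strand: acttatttgaaagatAAAATATCTccttgt
AT5G59130, chr5:23873952-23873981, minus strand: ttgttgtactctttgAGATATTTTttattg
Those before FBA5, AT1G70820 and AT4G13800 lie within the annotated neighbours AT4G26520, AT1G70810 and AT4G13810. AT4G13800, named as a magnesium transporter of the NIPA family, was at 16.0, 15.9, 3.92 and 2.70 CPM. A match is a description of letters and not a shown binding site, and the hour of harvest is not given in the sources used here.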

How the data were processed

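Shoots and roots of Col-0 seedlings were measured by mRNA-seq (TruSeq) in 24 libraries. The authors checked reads with FastQC 0.11.9, trimmed them with Trim Galore 0.6.6, quantified transcripts of the Araport11 annotation with kallisto 0.44.0, summed them to genes with tximport, removed genes of low CPM at a limit that is not stated, and fitted each tissue in edgeR. The deposited values are log2 CPM fitted by the authors, 1 per gene and group. Their identical columns carry no replicate spread, so the planned limma test was replaced by differences between group values, with no p-value. Depth per library is unknown, and p-values, intervals and leave-one-out fits could not be had.

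Members followed the limit of 10 CPM in Ctrl. The members, lists and role groups were chosen with earlier results of these data known. Named genes were the 10 highest, the 8 largest rises and falls with time, the 6 largest rises and falls with Ti at each day, and the highest members of each list. Genes named beyond these were chosen after their values were seen. Genes were matched to RefSeq TAIR10.1 by identifier, the build of all coordinates. Copies were found with blastn 2.17.0 (at least 95% identity over 80% of the transcript). Scripts ran in Python 3.11.15 with numpy 2.4.6 and pandas 2.3.3, and were tested on simulated data.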

Additional observations from a re-analysis of the deposited data

How the results depend on the processing

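No paired analysis was possible because the files hold 1 fitted value per group, so neither a replicate block nor a fit without each replicate could be run. With a limit of 0.5 log2 in place of 0.2, 0.469% of members were higher and 2.82% lower with Ti at 3 days, and 6.1% and 7.51% at 10 days. With a limit of 1.5 in place of 1, 2.82% rose and 11.3% fell with time in Ctrl, and 2.82% and 16.0% with Ti. A level limit of 20 CPM left 131 members, of which 0.763% rose in Ctrl and 5.34% with Ti. The other 72 of 83 alternatives for the shares and counts stayed within 1.5 times the value given. Rescaling each group to the same summed CPM, an alternative chosen after seeing the data, shifted the median of all shoot genes by 0.11 in the Ctrl time contrast, left the members' median there at -0.45, and turned their median with Ti at 10 days to -0.02 (55 members higher and 55 lower). Of 730 alternatives for 146 single-gene values beyond their limit, 717 stayed beyond it and none changed sign. Fitted values hide the spread between libraries, and the number of counts behind low members, such as AT2G04050 and PORA, is unknown.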

Other observations

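Of the 213 members, 27 carry a protein name of uncharacterized or unknown function. In Ctrl 9 of these 27 fell from day 3 to day 10 by more than 1 log2 and 1 rose, beside 7.89% and 4.74% of all shoot genes and 25.4% and 4.69% of all members. With Ti at 10 days 10 were higher and 7 lower by more than 0.2 log2, beside 24.2% and 21.7% of all shoot genes and 29.6% and 20.7% of all members. AT2G30766, with the largest fall of all members, and AT1G67865, among the largest rises with Ti at 10 days, belong to them.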
